A study of Mus musculus with 23 samples.

Results

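Embryoid bodies (EBs) without Trim33 were compared after activin A and after SB431542, across every gene that reached 1 FPKM in at least 2 of the 4 libraries. FPKM counts fragments scaled by gene length and by the mapped fragments of a library. This rule kept 10994 of the 29034 gene symbols in the table, from 4 of the 10 RNA-seq libraries and of the 23 mouse samples in the series. EBs are the aggregates that embryonic stem cells (ESCs) form in suspension, and the series concerns Nodal signals that reach mesendoderm genes by way of TRIM33. The 4 libraries were made from day 2.5 EBs of Trim33 null ESCs on a C57Bl/6J background, grown in 15% serum without LIF, the cytokine that holds ESCs undifferentiated. In 2 of them activin A had been added at 50 ng/ml for 2 h. The other 2 had received SB431542 at 10 micromolar in the sample characteristics, while the protocol text gives the same number in millimolar. The time of SB431542 is 2 h in the sample titles and 1 h in the protocol. Wild-type (WT) EBs under the same treatments, with 2 libraries each, entered the fit to estimate spread. No group received neither agent, so a difference between activin and SB431542 joins the effect of added ligand with that of blocked receptors. The titles number the Trim33 null samples 1 and 4, while the table columns carry the numerals I and II. The titles and the columns could not be matched, so libraries are named here by column.

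Activin binds type II receptors, which activate type I receptors, and these phosphorylate the signal-transducing SMAD proteins. Nodal uses the same route with the help of a co-receptor, and SB431542 blocks the type I receptor kinases on this route. Among the genes switched on are inhibitors of the pathway itself, such as the Lefty proteins and Smad7, and in the mouse embryo graded Nodal signalling patterns the primitive streak. TRIM33, also called TIF1-gamma, is a chromatin reader that binds activated SMADs.

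Marker genes were set beside the labels of the libraries. Trim33 was at 2.23 and 2.69 FPKM under activin and 2.38 and 2.83 under SB431542 in null EBs, against 10.1 to 11.4 in the 4 WT libraries, and which exons were deleted is not given in the labels. The epiblast gene Fgf5 ran from 5.44 to 14.0 FPKM across the 4 null libraries. The naive marker Zfp42 ran from 11.9 to 15.2 FPKM in them, against 198 FPKM in an activin-treated library of the ESC line E14, whose title carries the letters LKO although its characteristics say wild type. Summed FPKM lay between 246235 and 251583 and between 5810 and 6905 symbols were listed at 0. The table holds no read counts, so absolute depth is unknown. Steps between low FPKM values put activin II, SB431542 I and SB431542 II at 1.66, 2.17 and 1.97 times the depth of activin I, from ratios that 8.41% to 9.97% of low values shared, against 0.78% to 1.03% at a typical ratio. The labels do not state whether replicate libraries stem from separate cultures, and p-values therefore reflect the scatter between these libraries alone, which can be technical.

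A small set of genes was higher under activin than under SB431542 in the absence of Trim33, and pathway inhibitors led this set. With limma on log2(FPKM + 1) and Benjamini-Hochberg adjustment, 15 genes passed an adjusted p of 0.05, or 0.136% of those tested. All 15 were higher under activin, by 0.84 to 3.59 on the log2 scale with a median of 1.36. In all 15 both activin libraries lay above both SB431542 libraries. The 15 were called on this same difference, so their lack of overlap, also where given by gene below, adds no support. None was called lower, although 224 genes had an unadjusted limma p under 0.05. Across all genes tested the median difference was -0.02 on the log2 scale, and 37.4% were positive. Both activin libraries lay above both SB431542 libraries for 641 genes (5.83%) and below them for 1200 (10.9%). Libraries of the same column deviated together, and with the column numeral as a replicate block the count was 76 (0.691%). Of these, 71 were higher (0.646%) and 5 lower (0.0455%), and all 15 genes of the unblocked test were among them.

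The unblocked count depended on every library in the fit. From the 4 null libraries alone it was 0, with 131 genes at an unadjusted limma p under 0.05, and from those 4 with the block it was 203 (155 higher, 48 lower). It was 8 without activin I of the null EBs and 5 without any other of the 8 EB libraries, WT activin I and II and WT SB431542 I and II included. With 2 libraries against 2, the smallest two-sided p of an exact permutation test is 0.333, so the calls rest on a spread shared across genes and groups.

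**Figure D1:**
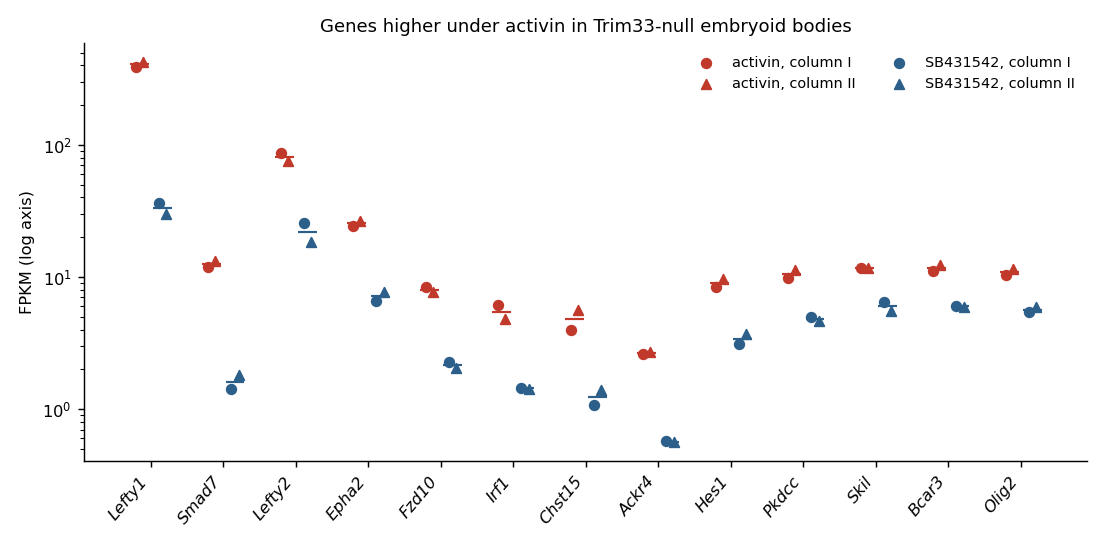
FPKM on a log axis of 13 of the 15 genes called without the replicate block, in the 4 Trim33-null libraries; circles are column I, triangles column II, and short bars the mean of 2 libraries. Each activin point stands above each SB431542 point of its gene, from Lefty1 with a log2 change of 3.59 at the left to Olig2 with 0.84 at the right.

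Both Lefty genes, secreted inhibitors of Nodal, were called. Lefty1, which keeps Nodal from its receptors, was at 389 and 426 FPKM under activin (columns I and II), against 36.2 and 29.8 FPKM under SB431542. The mean ratio was 12.3, and the log2 change was 3.59 ± 0.11 (SE; limma adjusted p = 0.000312). Its paralog Lefty2 was at 86.1 and 75.7 FPKM under activin and at 25.6 and 18.4 FPKM under SB431542, a log2 change of 1.85 ± 0.17 (limma adjusted p = 0.0233). Neither gene's groups overlapped, and Lefty1 was higher than Lefty2 in all 4 libraries on this length-scaled unit. The paralogs are similar in sequence, and how the authors assigned shared reads is not given in the sources used here.

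Inhibitors inside the cell were called as well. Smad7, which blocks type I receptors and was the gene with the second-largest change, reached 11.9 and 13.2 FPKM under activin and stood at 1.43 and 1.81 FPKM under SB431542. Its log2 change of 2.37 ± 0.10 was near equal in column I (2.41) and column II (2.34), with a limma adjusted p of 0.00118. Skil, a SMAD co-repressor also called SnoN, had 11.7 and 11.8 FPKM under activin, against 6.46 and 5.55 FPKM under SB431542. The Skil groups were well apart, but its adjusted p in limma was 0.0494 (log2 change 0.87 ± 0.09).

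Transcription factor genes were also among the 15. Hes1, a repressor best known as a Notch target, had 8.36 and 9.63 FPKM under activin, against 3.08 and 3.69 FPKM under SB431542. Irf1, an interferon regulatory factor, was at 6.13 and 4.79 FPKM under activin and at 1.45 and 1.43 FPKM under SB431542. For both genes the lowest activin library lay far above the highest SB431542 library. Olig2, a neural bHLH factor, showed a smaller step, with 10.4 and 11.5 FPKM under activin and 5.39 and 5.91 FPKM under SB431542. Log2 changes were 1.19 for Hes1, 1.40 for Irf1 and 0.84 for Olig2, with limma adjusted p-values of 0.0138, 0.0159 and 0.0350.

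Surface receptors outside the TGF-beta family were a further group. Epha2, an Eph receptor tyrosine kinase, was at 24.4 and 26.7 FPKM under activin, against 6.61 and 7.68 FPKM under SB431542 (log2 change 1.71 ± 0.12, limma adjusted p = 0.0104). The Wnt receptor gene Fzd10 had 8.36 and 7.67 FPKM under activin and 2.27 and 2.05 FPKM under SB431542 (log2 change 1.51 ± 0.10, limma adjusted p = 0.0086). Ackr4, an atypical receptor that removes chemokines, was at 2.60 and 2.68 FPKM under activin and at 0.571 and 0.563 FPKM under SB431542. Replicates of Ackr4 were close in both groups, and the log2 change was 1.22 ± 0.10 (limma adjusted p = 0.0191). Ackr4 passed the filter through its activin libraries alone, and in a limma fit with no filter it was not called (adjusted p = 0.0638).

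Enzymes and an adaptor were a last group. Chst15, which sulfates chondroitin chains, was at 3.97 and 5.63 FPKM under activin and at 1.08 and 1.39 FPKM under SB431542. Pkdcc, a secreted tyrosine kinase, had 9.85 and 11.3 FPKM under activin and 5.00 and 4.61 FPKM under SB431542. For both enzymes the treatments were separated, more widely by ratio for Chst15. Bcar3, an adaptor of integrin and growth factor signalling, was at 11.1 and 12.3 FPKM under activin and at 6.06 and 5.94 FPKM under SB431542. Log2 changes were 1.36 for Chst15, 1.00 for Pkdcc and 0.86 for Bcar3, with limma adjusted p-values of 0.0494, 0.0360 and 0.0193.

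Upstream sequence is shown for 4 called genes, to set their promoters beside their response. They have the largest changes among those matched in the promoter table and not on a chromosome left out by rule. Each line is the 250 bases before the annotated start, 5′ to 3′ on the gene's strand, from RefSeq on GRCm38.p6, a different build from the mm9 named by the submitters. Capitals mark matches on either strand to CAGAC (reverse complement GTCTG), the SMAD-binding element, and to GGCGCC, a GC-rich motif that SMADs also bind. AATCCACA (reverse complement TGTGGATT), a motif of the SMAD partner FOXH1, was searched as well. The windows are chr4:141300971-141301220 on the plus strand for Epha2, chr5:128600856-128601105 on the plus strand for Fzd10, chr11:53769764-53770013 on the plus strand for Irf1 and chr7:132317229-132317478 on the minus strand for Chst15.
Epha2: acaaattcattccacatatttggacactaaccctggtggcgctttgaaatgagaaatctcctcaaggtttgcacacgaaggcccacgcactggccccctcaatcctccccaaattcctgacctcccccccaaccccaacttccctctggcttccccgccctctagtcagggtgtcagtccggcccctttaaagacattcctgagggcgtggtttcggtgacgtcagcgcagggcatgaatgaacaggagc
Fzd10: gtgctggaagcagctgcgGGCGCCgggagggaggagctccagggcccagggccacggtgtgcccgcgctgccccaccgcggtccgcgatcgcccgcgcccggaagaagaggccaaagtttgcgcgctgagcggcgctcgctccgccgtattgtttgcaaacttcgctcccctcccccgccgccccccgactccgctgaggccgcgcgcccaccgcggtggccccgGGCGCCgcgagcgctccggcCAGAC
Irf1: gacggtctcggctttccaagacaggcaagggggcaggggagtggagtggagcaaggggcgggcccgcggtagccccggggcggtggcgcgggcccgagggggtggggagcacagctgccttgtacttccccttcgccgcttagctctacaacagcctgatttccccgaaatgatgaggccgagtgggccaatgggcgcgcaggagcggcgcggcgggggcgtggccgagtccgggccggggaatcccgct
Chst15: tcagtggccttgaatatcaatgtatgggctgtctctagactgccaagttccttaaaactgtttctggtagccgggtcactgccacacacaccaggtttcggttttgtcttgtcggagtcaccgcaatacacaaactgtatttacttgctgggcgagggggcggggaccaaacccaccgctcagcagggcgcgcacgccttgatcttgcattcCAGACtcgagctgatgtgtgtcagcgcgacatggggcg
The Fzd10 window held 1 CAGAC and 2 GGCGCC matches, which do not overlap. Chst15 held 1 CAGAC match, and Epha2 and Irf1 held none of the 3 motifs. Irf1 and Chst15 have 2 listed starts each, and the first listed is shown. Of the 15 called genes 8 matched an entry of the promoter table, and 5 of these 8 held CAGAC in at least 1 listed window, against 44.8% of the 7975 tested genes with an entry. GGCGCC was in 3 of the 8 against 20.2%, and AATCCACA in 0 of the 8 against 0.476%. With the replicate block, 27 of 51 matched higher genes held CAGAC. A match describes letters in this window alone.

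The blocked fit, which takes out the difference between columns I and II, added growth factor genes among others. Fgf8, a growth factor of the primitive streak, was at 8.81 and 3.0 FPKM under activin and at 1.91 and 0.461 FPKM under SB431542. Column I was the higher under both treatments, and the log2 change was 1.75 in column I and 1.45 in column II. Without the block its limma adjusted p was 1.00 (1.60 ± 0.54), and with it 0.00195 (SE 0.08). Fgf15, another FGF, had 4.60 and 2.32 FPKM under activin, against 0.790 and 0.304 FPKM under SB431542. Its limma adjusted p was 0.270 without and 0.00206 with the block, on a log2 change of 1.5. Fgf15 passed the filter through its activin libraries alone. Wnt3, a ligand needed to form the primitive streak, had 3.80 and 5.90 FPKM under activin and 1.08 and 1.59 FPKM under SB431542. For Wnt3 column II was the higher, and the limma adjusted p was 0.266 without and 0.0287 with the block (log2 change 1.31).

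Pxdc1 and Rasd2, a Ras-like small GTPase gene, were also among the 15 largest positive changes called with the block. Pxdc1 was at 13.8 and 17.0 FPKM under activin and at 4.35 and 4.68 FPKM under SB431542, with a limma adjusted p of 0.0759 without the block and 0.00202 with it (log2 change 1.56). Rasd2 had 7.03 and 9.75 FPKM under activin and 3.39 and 3.52 FPKM under SB431542, with limma adjusted p-values of 0.457 and 0.0374 (log2 change 1.06). In both genes activin libraries were above SB431542 libraries without overlap. The same held for 65 of the 71 genes called higher with the block, against 641 of all 10994 genes (5.83%). The 71 were picked by this same difference, so their lack of overlap adds no support. The median log2 change of the 71 was 0.64, and 15 of them reached 1.

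All 5 genes called lower under activin were called with the block alone, and their changes were smaller than the leading positive ones. Spry4, a feedback inhibitor of FGF receptor signalling, was at 7.98 and 8.07 FPKM under activin and at 11.8 and 12.5 FPKM under SB431542. This is a log2 change of -0.54, with a limma adjusted p of 0.270 without the block and 0.0316 with it. Cited2, which binds the co-activators EP300 and CREBBP, had 16.1 and 15.7 FPKM under activin, against 22.5 and 20.4 FPKM under SB431542 (log2 change -0.41, limma adjusted p = 0.0287 with the block). The groups were apart for both genes. Klf6, a zinc-finger factor, was at 12.7 and 19.1 FPKM under activin and at 17.3 and 28.6 FPKM under SB431542. Its groups overlapped, with column II the higher under both treatments, and it was lower under activin within each column. The other 2 are Gm12666, listed as a pseudogene, whose reads may come from its parent gene, and Gm12798, with log2 changes of -0.57 and -0.38.

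**Figure D2:**
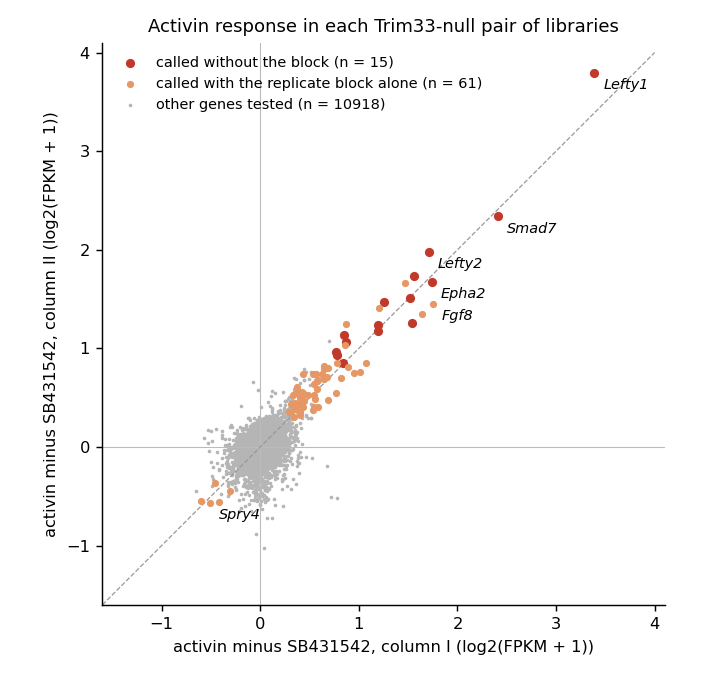
Activin minus SB431542 in column I (x axis) against column II (y axis) for the 10994 genes tested, on the log2(FPKM + 1) scale; dark red points were called without the block, orange points with the replicate block alone, and the dashed line marks equal change. The 15 dark red points lie near the line, from 0.770 (Skil, column I) to 3.79 (Lefty1, column II). The 5 orange points below 0 in both columns include Spry4.

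The pathway's own genes were described by role, from ligands to inhibitors. The lists of genes were chosen with earlier results of these data known, so their counts are descriptions, to be set beside the 0.136% of all genes called and the 0.691% called with the block. At those shares a list of this size with no call does not stand apart from the other genes. Of 18 Nodal ligands and extracellular regulators 12 were tested, 2 were called (Lefty1 and Lefty2) and 3 with the block, where the Nodal co-receptor gene Tdgf1 was added. Tdgf1, also called Cripto, was at 241 and 211 FPKM under activin and 151 and 129 FPKM under SB431542, with a limma adjusted p of 0.146 without the block and 0.00258 with it (log2 change 0.69). Nodal itself was at 44.2 and 43.0 FPKM under activin, against 26.8 and 19.8 FPKM under SB431542. Its groups did not overlap, yet its log2 change of 0.89 ± 0.20 passed neither test (limma adjusted p = 0.648 without and 0.13 with the block). Gdf3, a ligand of the same receptors, had 29.1 and 20.8 FPKM under activin and 28.4 and 18.4 FPKM under SB431542, values that overlapped.

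Receptor genes of the TGF-beta superfamily gave no call: 0 of 9 tested in either fit, with log2 changes from -0.15 to 0.11. Acvr1b, the main activin type I receptor, was at 3.34 and 3.46 FPKM under activin and 3.30 and 3.47 FPKM under SB431542. None of the 10 SMADs and partners tested was called, with log2 changes from -0.10 to 0.06. Smad2, a transducer of activin signals, was at 4.92 and 5.19 FPKM under activin and 5.26 and 5.25 FPKM under SB431542. Foxh1, the DNA-binding partner of SMADs, was at 32.5 and 32 FPKM under activin and 31.9 and 29.8 FPKM under SB431542. Of 9 intracellular SMAD inhibitors tested, 2 were called (0.136% of all genes) and 4 with the block (0.691% of all genes), where Ski and Pmepa1 joined Smad7 and Skil. Pmepa1, which keeps SMADs from the receptor, was at 4.63 and 8.78 FPKM under activin, against 1.68 and 4.41 FPKM under SB431542 (log2 change 0.96, limma adjusted p = 1.00 without and 0.00381 with the block). Its column II was the higher under both treatments, and activin I lay above SB431542 II by a narrow margin.

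Of 20 known Nodal and activin targets listed, 15 passed the filter, of which 5 were called (0.136% of all genes) and 9 with the block (0.691%). The 15 that passed each had a positive log2 change, against 37.4% of all genes tested. Their median was 0.88 against -0.02 over all genes tested. Of 12 primitive streak genes 6 passed the filter, 0 were called without the block and 3 with it (Fgf8, Wnt3 and Eomes), and the median was 0.89. Eomes, a T-box factor of the streak, was at 5.10 and 2.2 FPKM under activin and 2.03 and 0.896 FPKM under SB431542, a log2 change of 0.88 (limma adjusted p = 0.00857 with the block). T, or Brachyury, had 5.45 and 3.10 FPKM under activin, against 3.68 and 1.42 FPKM under SB431542, with overlapping groups and no call. Genes that reached 1 FPKM only where they are high pass such a filter more easily, so these counts and medians leave out the low members. Cer1, a Nodal antagonist gene under the filter, had a log2 change of -0.00198 in a limma fit with no filter.

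Several mesendoderm genes stayed under the filter in null EBs. The homeobox gene Gsc was at 0.494 and 0.474 FPKM under activin and 0.253 and 0.295 FPKM under SB431542. Mixl1, another homeobox gene, was at 0.787 and 0.491 FPKM under activin and 0.350 and 0.241 FPKM under SB431542. Activin libraries were the higher for both, at levels where a log2(FPKM + 1) change is compressed. In a limma fit with no filter their log2 changes were 0.22 ± 0.16 and 0.33 ± 0.17, with adjusted p-values of 1.00. Of 10 definitive endoderm genes 3 were tested and 0 called, and of 11 mesoderm genes 2 were tested, of which Msx1 was called with the block. Msx1, a homeobox gene, had 1.45 and 1.18 FPKM under activin and 0.442 and 0.490 FPKM under SB431542 (log2 change 0.66, limma adjusted p = 0.0496 with the block). Msx1 passed the filter through its activin libraries alone.

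**Figure D3:**
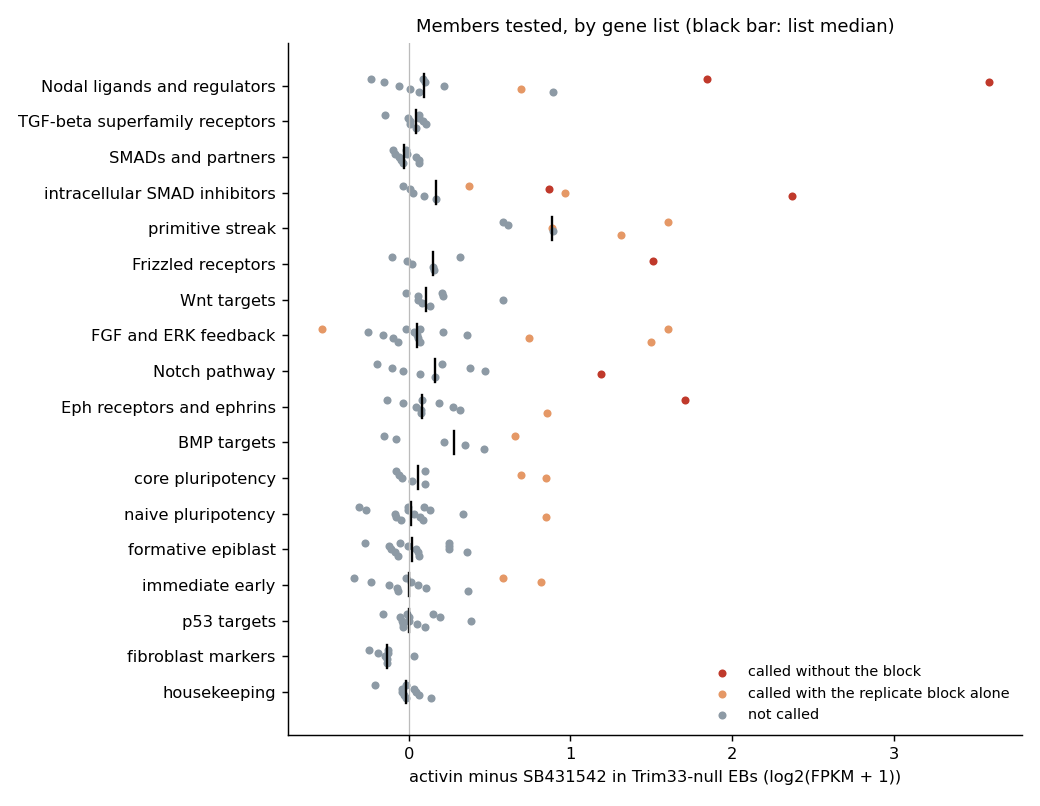
Log2 change under activin of the tested members of 18 gene lists in Trim33-null EBs, 1 point per gene, with the list median as a black bar and colour giving the call. Primitive streak genes have a median of 0.89 and receptors 0.04, and single far-right points mark Lefty1, Smad7, Epha2 and Fzd10.

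Other signalling lists held isolated responders. Fzd10 was the 1 Frizzled gene of 7 tested to be called, and Fzd7, the most abundant, was at 17.7 and 16.5 FPKM under activin and 14.3 and 12.8 FPKM under SB431542 with no call (log2 change 0.32). None of 8 tested Wnt target genes was called in either fit, and their median was 0.10. Among 16 FGF ligands, feedback genes and targets, 0 were called without the block, while with it 3 were higher (Fgf8, Fgf15 and Il17rd) and Spry4 was lower. Il17rd, an FGF feedback inhibitor also called Sef, was at 8.40 and 6.51 FPKM under activin, against 4.85 and 3.32 FPKM under SB431542 (log2 change 0.74, limma adjusted p = 0.00881 with the block). The ERK feedback phosphatase gene Dusp6 was at 31.9 and 29.5 FPKM under activin and 31.9 and 27.5 FPKM under SB431542. These groups overlapped, as did those of Spry2, an inhibitor related to Spry4. Hes1 was the 1 Notch pathway gene of 9 tested to be called. Notch3, a receptor, had 8.39 and 10.5 FPKM under activin and 6.23 and 7.82 FPKM under SB431542, with no call in either fit (log2 change 0.38). Epha2 was the 1 of 11 Eph and ephrin genes called, and the ephrin ligand gene Efnb1 was added by the block. Efnb1 was at 3.45 and 4.54 FPKM under activin and 1.40 and 2.15 FPKM under SB431542 (log2 change 0.85). The BMP target Id1 stood at 27 and 37.9 FPKM under activin and 20.8 and 25.3 FPKM under SB431542, without a call in either fit (log2 change 0.46). Of the 6 BMP targets tested, none was called without the block and Msx1 alone with it. Irf1 was the 1 of 6 tested interferon-type genes called, and the median of that list was -0.08.

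Of 8 core pluripotency genes 0 were called without the block, and 2, Nanog and Tdgf1, were with it, against 0.691% of all genes. Nanog, a homeobox gene of the pluripotent state, was at 105 and 76.0 FPKM under activin, against 54.0 and 44.9 FPKM under SB431542 (log2 change 0.85, limma adjusted p = 0.801 without and 0.0159 with the block). The activin libraries were the higher in both columns, without overlap. Pou5f1, or Oct4, had 191 and 179 FPKM under activin and 185 and 161 FPKM under SB431542, and Sox2 had 58.2 and 54.4 FPKM under activin and 56.2 and 55.0 FPKM under SB431542. Both genes overlapped between treatments. Of 14 naive pluripotency genes Nanog alone was called with the block, and of 14 formative epiblast genes none was in either fit. Among 12 immediate early genes Myc and Junb were called with the block. Myc was at 9.88 and 9.23 FPKM under activin and 5.33 and 4.65 FPKM under SB431542 (log2 change 0.82), while Junb at 7.27 and 11.8 FPKM under activin overlapped its 4.15 and 8.19 FPKM under SB431542. Housekeeping genes gave 0 calls of 10 with a median of -0.02.

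The response of the 15 genes in null EBs resembled that of WT EBs in direction, and no difference in size between the genotypes was called. All 15 had a positive log2 change in WT EBs, 12 of 15 had the lower value in null EBs, and the median difference, null minus WT, was -0.24. Over all 10994 genes 7203 had the same sign in both genotypes, 7171 had the lower value in null EBs and the median difference was -0.02. No gene of 10994 passed the test of that difference (0%) in limma with or without the block. Unadjusted limma p-values under 0.05 numbered 19 without and 263 with it. Lefty1 was higher under activin by 3.59 in null and 4.15 in WT EBs, a difference of -0.56 ± 0.16 (limma adjusted p = 1.00). In FPKM it was at 389 and 426 under activin in null EBs and at 181 and 177 in WT EBs, and at 36.2 and 29.8 under SB431542 in null EBs and at 8.63 and 9.73 in WT EBs. Null libraries were thus the higher under both treatments, by a wider ratio under SB431542. Fzd10 differed by -0.40 ± 0.14 and Igfbp3, an IGF-binding protein gene, by -0.70 ± 0.19 (limma adjusted p = 1.00 for each). Igfbp3 was at 16.9 and 18.5 FPKM under activin and 13.3 and 17.4 FPKM under SB431542 in null EBs, and at 12.4 and 14.0 under activin and 6.24 and 6.96 under SB431542 in WT EBs. Its treatments overlapped in null EBs and were apart in WT EBs.

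Among genes reaching 5 FPKM, the smallest unadjusted p-values for a positive difference, again uncalled, were those of Gm8444 (0.51 ± 0.11), Gm10269 (0.36 ± 0.09) and Klhl8 (0.32 ± 0.13), each with a limma adjusted p of 1.00. Gm8444 and Gm10269 are listed as pseudogenes, whose reads may come from their parent genes. Ackr4, singled out after its values were seen, was the called gene with the widest positive difference, 0.64 ± 0.15 (limma adjusted p = 1.00). It was at 0.617 and 0.959 FPKM under activin and 0.170 and 0.223 FPKM under SB431542 in WT EBs, below the null libraries of the same treatment. These WT values are under 1 FPKM, where a log2(FPKM + 1) change is compressed. The part of that compression in the difference was not tested. With a pseudocount of 0.1 Ackr4 was not called in null EBs (limma adjusted p = 0.0643). Pmepa1 differed by -0.82 with an SE of 0.53 without the block and 0.09 with it (limma adjusted p = 1.00 in both). Its response was 0.96 in null and 1.78 in WT EBs. The difference of Gsc, fitted with no filter, was -1.17 ± 0.22 (limma adjusted p = 1.00).

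**Figure D4:**
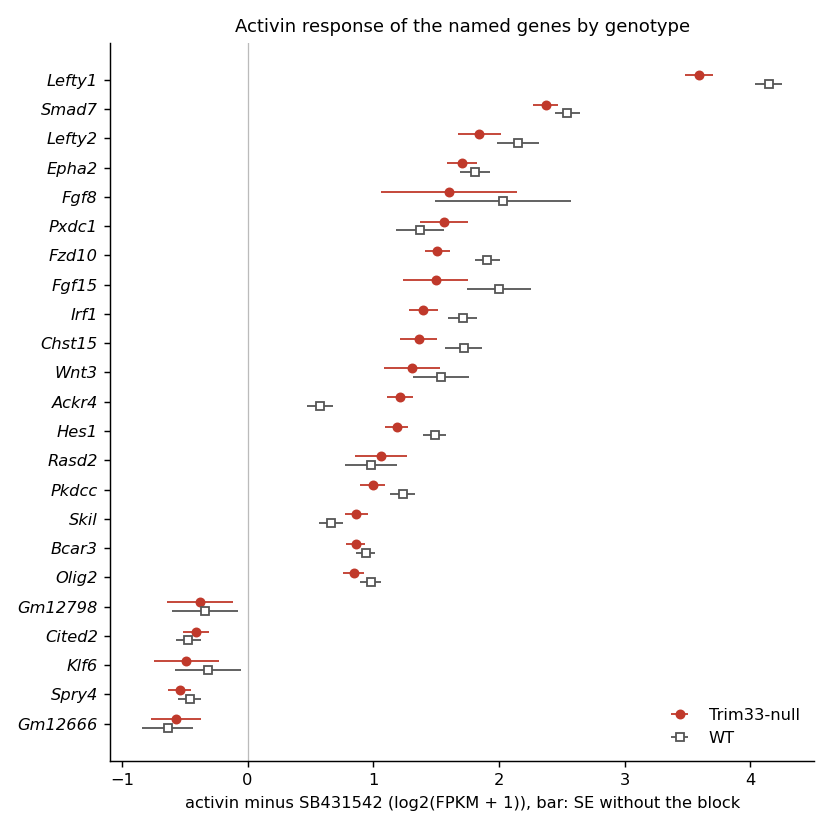
Log2 change under activin in Trim33-null EBs (filled circles) and WT EBs (open squares) for 13 of the 15 genes called without the block and the 10 named under the block alone; bars are the SE of the fit without the block. Lefty1 is at 3.59 in null and 4.15 in WT EBs, and Ackr4, at 1.22 in null EBs, lies above its WT value of 0.57. The WT levels of Ackr4 are under 1 FPKM, where this scale compresses a change.

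The columns of null EBs differed from each other more than the treatments did. Across genes, the median absolute difference between columns I and II was 0.146 log2 under activin and 0.145 under SB431542, while that between treatments was 0.056 in column I and 0.056 in column II. Pearson correlations across genes, which are not independent replicates, were 0.997 and 0.996 between treatments of a column and 0.983 and 0.982 between columns of a treatment. By at least 1 log2 under both treatments, 22 genes were higher in column I and 61 in column II, while 14 genes were higher and 0 lower under activin in both columns. None of the genes called with or without the block was among those 22 or 61. Libraries cannot be tied to a line, a culture or a preparation by column, so these differences are descriptions.

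Column I held more of Grb10, an imprinted adaptor that restrains insulin signalling, at 12.4 and 12.7 FPKM under activin and SB431542, against 1.67 and 1.96 FPKM in column II. Sept1, AI662270, Ccnb1ip1, Tagap1 and Arl14epl also led in column I, by 1.67 to 2.2 log2 at the smaller of their treatment values. Column II held more of Ipp, at 41.5 and 41.7 FPKM under activin and SB431542, against 1.43 and 1.55 FPKM in column I, and of the pseudogenes Gm6594 and Gm16494. It also held more of Mgp, a matrix protein that restrains calcification, of Timp2, a metalloproteinase inhibitor, and of Bgn, a matrix proteoglycan. Mgp was at 62.0 and 75.9 FPKM in column II under activin and SB431542, against 17.8 and 18.3 FPKM in column I. None of these genes was called between treatments in either fit.

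Fibroblast markers and p53 targets moved with the column in null EBs. The 9 fibroblast markers summed to 16.5 and 36.0 FPKM under activin and 17.1 and 43.1 FPKM under SB431542 in columns I and II, a ratio of 2.18 and 2.52. All 9 were higher in column II under both treatments, and none of the 8 tested was called between treatments. None was at 0: Col1a1, a fibrillar collagen gene, was at 2.73 and 8.98 FPKM under activin and 2.97 and 10.3 FPKM under SB431542. In bulk RNA, more cells of a type and more RNA per cell cannot be told apart, and the part of these markers in the activin result was not tested. Of 13 p53 targets 12 were higher in column II under both treatments, against 4409 of all 10994 genes, and 0 were called between treatments. Mdm2, the p53 ubiquitin ligase, was at 25.9 and 54.8 FPKM under activin and 30.6 and 58.4 FPKM under SB431542 in columns I and II. Core pluripotency genes went the other way. Under both treatments 7 of 8 were higher in column I, against 4949 of all 10994 genes, and 0 in column II. In WT EBs column II was the higher under both treatments for 7 of 8 tested fibroblast markers, against 4068 of all 10994 genes. It was so for 5 of 13 p53 targets. Core pluripotency genes in WT EBs were split, with 3 higher in column II and 4 in column I. The labels do not tie WT and null columns of a numeral to each other. In null EBs the responses of the 15 called genes in columns I and II differed by a median of 0.18 log2 and at most 0.41.

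**Figure D5:**
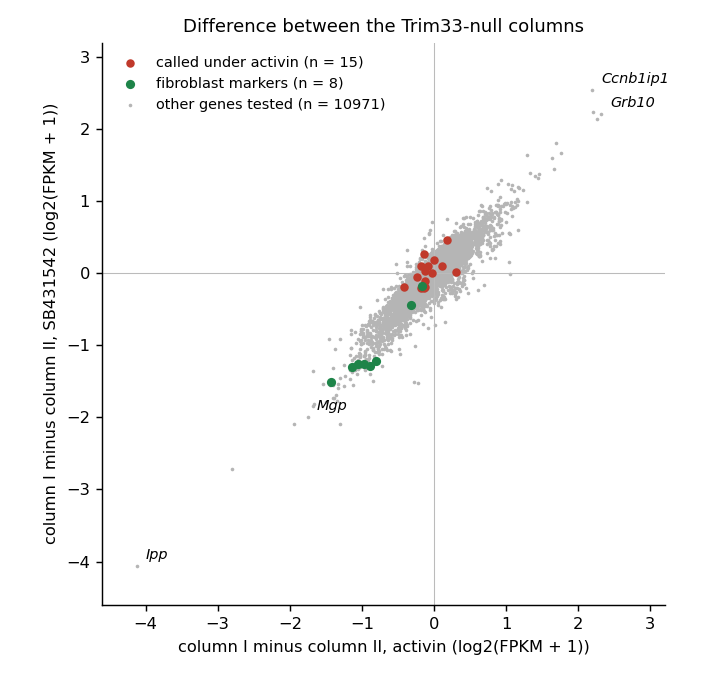
Column I minus column II on the log2(FPKM + 1) scale in Trim33-null EBs, under activin (x axis) and SB431542 (y axis), for all genes tested; red points are the 15 genes called under activin and green points the 8 tested fibroblast markers. Points follow the diagonal; the fibroblast markers lie below 0 on both axes, and Ipp is near -4.1 at the lower left.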

How the data were processed

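RNA-seq libraries of day 2.5 EBs were used: 2 each of Trim33-null EBs under activin and SB431542 and of WT EBs under activin and SB431542. The values are FPKM, deposited by the authors as 1 table over all libraries. Per the submitters' processing notes, the tools were Bowtie2 2.2.2, STAR 2.4.0, Cufflinks 2.2.1 and CASAVA 1.8, on mm9, with no role stated for any; annotation and strandedness were not given in the sources used here. Of 29145 entries, 111 with a repeated symbol were left out, keeping the highest mean, and 27 symbols that a spreadsheet had turned into dates were restored by gene identifier.

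Values were tested as log2(FPKM + 1) with limma 3.58.1 in R 4.3.3 (intensity trend, two-sided, Benjamini-Hochberg adjustment over 10994 genes, threshold 0.05), over the 8 EB libraries with 4 residual degrees of freedom. Changes are activin minus SB431542, and understate those of low genes. The column numeral was an alternative replicate block within each genotype, with 2 residual degrees of freedom. It pairs the samples by the data: the deviation of column I from column II correlated across genes between treatments at 0.912 in null and 0.465 in WT EBs. The fits were tested on simulated data. Relative depth came from ratios of values under 0.06 FPKM, matched within 0.02 log2.

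Named genes were all called genes (2 of the 15 are not reported here), the 15 largest rises and up to 10 largest falls called with the block, the 3 smallest p-values in each direction for the difference between genotypes among genes reaching 5 FPKM, the 6 widest gaps per column and members of 32 gene lists, of which those with a bearing on the results are described. The remaining lists are in the closing section. Members and lists were chosen with earlier results of these data known. Alternatives changed the block, libraries, filter, pseudocount, scaling and trend.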

Additional observations from a re-analysis of the deposited data

Results flagged for a closer look

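Klhl8, a Kelch-like family gene, had differences of opposite sign in the genotypes: its value was higher under activin in both columns of null EBs and lower in both columns of WT EBs, where the groups overlapped. It was at 6.26 and 6.86 FPKM under activin and 5.15 and 5.39 FPKM under SB431542 in null EBs, and at 2.42 and 2.75 FPKM under activin and 2.46 and 2.99 FPKM under SB431542 in WT EBs. The difference in log2 change, null minus WT, was 0.32 ± 0.13, and the test of that difference did not pass (limma adjusted p = 1.00).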

How the results depend on the processing

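The count of 15 genes called in null EBs became 76 with the replicate block, 0 from the 4 null libraries alone (131 at an unadjusted limma p under 0.05) and 203 from those 4 with the block (155 higher, 48 lower). With no filter on low values it was 6, over 24829 genes, and leaving out a library gave 5 to 8. Without both null libraries of column I it was 4, and without both of column II 5. Alternatives chosen after seeing the data gave 93 for the block with median-of-ratios scaling (89 higher, 4 lower), 5 for the block with no filter and 75 for the block with a pseudocount of 0.1. The unblocked count stayed between 13 and 16 with a pseudocount of 0.1, a minimum of 5 FPKM, the filter over 8 EB libraries, median-of-ratios scaling or no trend. The count for the difference in response was 0 under each of these alternatives that holds WT libraries. Among the genes named for activin against SB431542 in the unblocked or blocked test, none changed direction under any alternative; list members, genes named for the genotype difference and column-gap genes were not followed, and Lefty1 and Smad7 were each called in 21 of 22 alternatives. Fewer libraries leave fewer residual degrees of freedom; other causes were not tested. Depth in reads is unknown, so a gene listed at 0 has no limit, and low genes such as Gsc could not be judged with precision.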

Other observations

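Lists not described above gave few calls between activin and SB431542 in null EBs. Of 9 IGF binding protein and receptor genes, 8 cadherin and mesenchymal transition genes, 12 heat shock and stress genes and 8 genes of the 2-cell-like state, 0 were called in either limma fit. The 8 tested genes of the 2-cell-like state all had a negative log2 change, with a median of -0.24 against -0.02 over all genes. Of all genes tested, 37.4% were positive. Zscan4c, Zscan4d and Zscan4f among the 8 are near-identical copies, and their values are uncertain for that reason. Of 10 pericellular proteolysis and matrix response genes Ctgf, a matricellular signalling gene, was called with the block: it was at 16.1 and 19.8 FPKM under activin and 10.7 and 14.7 FPKM under SB431542, a log2 change of 0.48. Of 6 neuroectoderm genes Olig2 was the 1 called. Of 5 trophoblast genes 1, Eomes, was called with the block. The single tested genes of extraembryonic endoderm and of blood and endothelium were not called, and the summed FPKM of those lists ran from 9.13 to 10.8 and from 3.42 to 5.07 across the 4 null libraries.

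In null EBs 9 of the 10 proteolysis and matrix response genes and all 8 cadherin and mesenchymal transition genes were higher in column II under both treatments. Of 12 immediate early genes 10 were, against 4409 of all 10994 genes. Column I was the higher for 10 of 14 formative epiblast genes and 7 of 8 genes of the 2-cell-like list, against 4949 of all genes. In WT EBs 8 of the 10 proteolysis and matrix response genes were higher in column II. All 8 genes of the 2-cell-like list were higher in column I there. Column II of WT EBs was the higher for 5 of 8 cadherin and mesenchymal transition genes and 5 of 12 immediate early genes. For all genes in WT EBs the counts were 4068 in column II and 2288 in column I.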
